A study of Homo sapiens with 12 samples.

Results

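The genes described here are 9 immediate early genes of 3 families, EGR1, EGR2 and EGR3, NR4A1, NR4A2 and NR4A3, and IER2, IER3 and IER5. They were chosen by name, as the probe sets that the platform annotation assigns to each symbol alone, and the choice of these genes was made with earlier results of these data known. This gave 16 of the 54675 probe sets of the array, for 8 of the 9 genes and of 19775 genes named for the array. EGR2 was not analysed here, because the annotation used names no probe set for it, alone or with other genes, which does not mean that the array lacks one. The cells were SW13, a human adrenal cortical carcinoma line that lacks BRG1 protein. BRG1 is an ATPase of the SWI/SNF chromatin remodeling complex, which holds either BRG1 or BRM. Transcripts were measured with Affymetrix U133 Plus 2.0 arrays in 4 groups of 3 arrays. They were SW13+BRG1 (stably carrying pREP7 with BRG1 isoform C) irradiated with 10 J/m2 UV, SW13+BRG1 mock treated, SW13+vector (empty pREP7) irradiated with the same dose, and SW13+vector mock treated. All cells were grown in medium with 10% serum and collected 6 hours after treatment. Each of SW13+BRG1 and SW13+vector is a single stable line, so a difference between the lines cannot be told apart from one that arose as the lines were made.

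Immediate early genes are transcribed within minutes of a growth factor, a stress or a membrane signal, without new protein synthesis, because the factors that switch them on are already present. SRF with its ternary complex partners, which are phosphorylated by ERK and stress kinases, and CREB are the best known of these factors. EGR proteins are zinc finger transcription factors, NR4A proteins are orphan nuclear receptors that act without a known natural ligand, and the IER genes share the early timing and not a single function. Irradiation with UV is a known inducer of many early genes, and most of their transcripts are short lived, so that a 6 hour time point lies after the usual early peak.

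The 250 bases before the RefSeq start of transcription are shown for EGR1, IER2 and IER5, bright members of which EGR1 and IER2 were lower and IER5 higher in mock treated SW13+BRG1 cells. Of the 8 genes 5 had an entry in the promoter table. The sequences are from RefSeq (GRCh38.p14), all on the plus strand, at chr5:138465229-138465478 for EGR1, chr19:13150161-13150410 for IER2 and chr1:181088450-181088699 for IER5. Capitals mark matches, on either strand, to the motifs searched.
EGR1: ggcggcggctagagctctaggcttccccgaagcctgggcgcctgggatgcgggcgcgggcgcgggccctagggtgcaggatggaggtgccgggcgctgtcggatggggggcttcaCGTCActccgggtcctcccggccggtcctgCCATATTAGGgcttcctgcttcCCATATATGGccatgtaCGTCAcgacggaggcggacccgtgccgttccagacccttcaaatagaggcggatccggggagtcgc
IER2: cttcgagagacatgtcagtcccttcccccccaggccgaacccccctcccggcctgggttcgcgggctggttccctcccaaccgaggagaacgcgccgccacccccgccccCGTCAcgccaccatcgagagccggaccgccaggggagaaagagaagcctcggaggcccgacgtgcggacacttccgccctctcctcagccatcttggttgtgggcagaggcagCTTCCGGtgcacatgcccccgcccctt
IER5: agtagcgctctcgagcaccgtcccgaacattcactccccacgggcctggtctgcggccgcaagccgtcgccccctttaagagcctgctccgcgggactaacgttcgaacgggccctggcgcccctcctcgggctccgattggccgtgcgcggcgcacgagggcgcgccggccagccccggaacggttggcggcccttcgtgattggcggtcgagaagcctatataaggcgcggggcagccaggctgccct
The motifs were the CArG box bound by SRF, the ETS core CCGGAAG, the CRE core TGACG and the full CRE TGACGTCA bound by CREB, the AP-1 site TGANTCA, the EGR site in the forms GCGTGGGCG and GCGGGGGCG, the NR4A monomer site AAAGGTCA and the TATA box TATAAA. EGR1 held 2 CArG boxes, starting 105 and 83 bases before the start of transcription, and 2 CRE cores. A CArG box was present in 1.16% of all 35116 promoter windows of the same length, and a CRE core in 21.2%. IER2 held 1 CRE core and 1 ETS core, the last of which was present in 8.52% of windows. IER5 held none of these letters, nor did either of the 2 windows of NR4A1, and NR4A3 held 4 CRE cores. None of the matches overlapped a match to another motif. A match is a string of letters in the reference and was not measured as a site here.

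Signals are MAS signals, which the authors scaled on each array to a mean of 125. The median signal of an array lay between 21.0 and 25.3. Arrays of 1 group correlated at r = 0.879 to 0.917 on the log2 scale, and arrays of different groups at 0.818 to 0.893. The 4 arrays of experiment 3 stood apart: their deviations from the group means correlated with each other at r = 0.179 to 0.293, and with those of experiments 1 and 2 at r = -0.223 to -0.0562. Values that rest on them are therefore given with and without them. SMARCA4, the gene of BRG1, had 9 probe sets. Its brightest, 215714_s_at, read 171, 176 and 343 in SW13+BRG1 UV, 143, 161 and 336 in SW13+BRG1 mock, 423, 451 and 686 in SW13+vector UV, and 314, 383 and 920 in SW13+vector mock. It was called lower in mock treated SW13+BRG1 cells (-1.28, limma adjusted p = 0.0459), while another, 212520_s_at, was called higher in UV treated SW13+BRG1 by 2.195 on the log2 scale (limma adjusted p = 0.00284). The sources used here do not place these probes relative to the introduced cDNA, so they check no label, and the groups are called by their labels. Of 9 adrenal cortex markers 7 had a probe set and 2 were bright enough to test. Their summed signal was 80.8 to 112 and 77.2 to 116 in SW13+BRG1 UV and mock and 67.6 to 150 and 49.8 to 74.6 in SW13+vector UV and mock, and no single value passed 60.8.

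Differences were tested with limma on log2 signals across 32622 probe sets that reached the array median on at least 3 of the 12 arrays. A probe set was called where the p-value, adjusted over all of them, was under 0.05 and the fold was above 2. Of the 16 probe sets 15 were tested. EGR1, with 3 probe sets, and IER2, IER3 and IER5, with 1 each, reached the median on all 12 arrays, which makes 6 probe sets. EGR3 reached it on 8 arrays, 6 of them SW13+vector, and the 3 probe sets of NR4A2 on 5 or 6 arrays, 5 of them SW13+BRG1, so both passed the filter through the line in which they were high, and the counts of calls are descriptions. NR4A1 211143_x_at reached it on 6 arrays, 3 of them SW13+vector UV, and 210226_at on 3, 2 of them SW13+BRG1 UV, in each case the highest group. NR4A3 216979_at and 207978_s_at reached it on 3 and 4 arrays, 2 of each in SW13+vector mock, their highest group. Changes of these probe sets are likewise descriptions. Without any filter the number of members called was the same in all 5 comparisons.

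In the 15 tested probe sets limma made 4 calls of a higher and 5 of a lower signal in mock treated SW13+BRG1 against SW13+vector cells, in NR4A2, IER3 and IER5 and in EGR1, EGR3 and IER2. Of all probe sets tested 7.69% were called higher and 4.3% lower in that comparison, 12% in either direction. In UV treated cells 4 were called higher, in NR4A2 and IER3, and 3 lower, in EGR1 and EGR3, beside 7.68% and 5.97% of all, or 13.7% in either direction. The median size of the change was 1.89 on the log2 scale for the members and 0.46 for all probe sets in mock treated cells, and 1.24 and 0.51 in UV treated cells. Probe sets of 1 gene are not independent of each other. Counted as genes, 3 of 8 had a higher and 3 a lower call in mock treated cells, beside 9.05% and 5.09% of 13834 genes by their brightest probe set. In UV treated cells 2 genes had a higher and 2 a lower call, beside 9.56% and 6.61%.

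For UV against mock in SW13+BRG1 cells 2 of the 15 were called higher, both of NR4A2, and 1 lower, that of IER3, beside 0.561% and 5.81% of all probe sets, or 6.37% in either direction. In SW13+vector cells limma called none, beside 0.665% of all higher and 3.6% lower, or 4.27% in either direction. Of the 15 there, 3 had an unadjusted p under 0.05 and 1 was called by the methods' t-test without adjustment. IER3 and IER5 had limma adjusted p under 0.05 there (0.0363 and 0.00711) and missed a call by the fold limit alone. The median size was 0.93 for the members and 0.41 for all in SW13+BRG1, and 0.68 and 0.38 in SW13+vector cells. For the difference of the UV responses 1 of the 15 was called, with a negative value, that of IER3, beside 0.0368% of all with a negative and 0.0123% with a positive value, or 0.049% in either direction. There the adjusted p under 0.05 alone made the call.

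**Figure D1:**
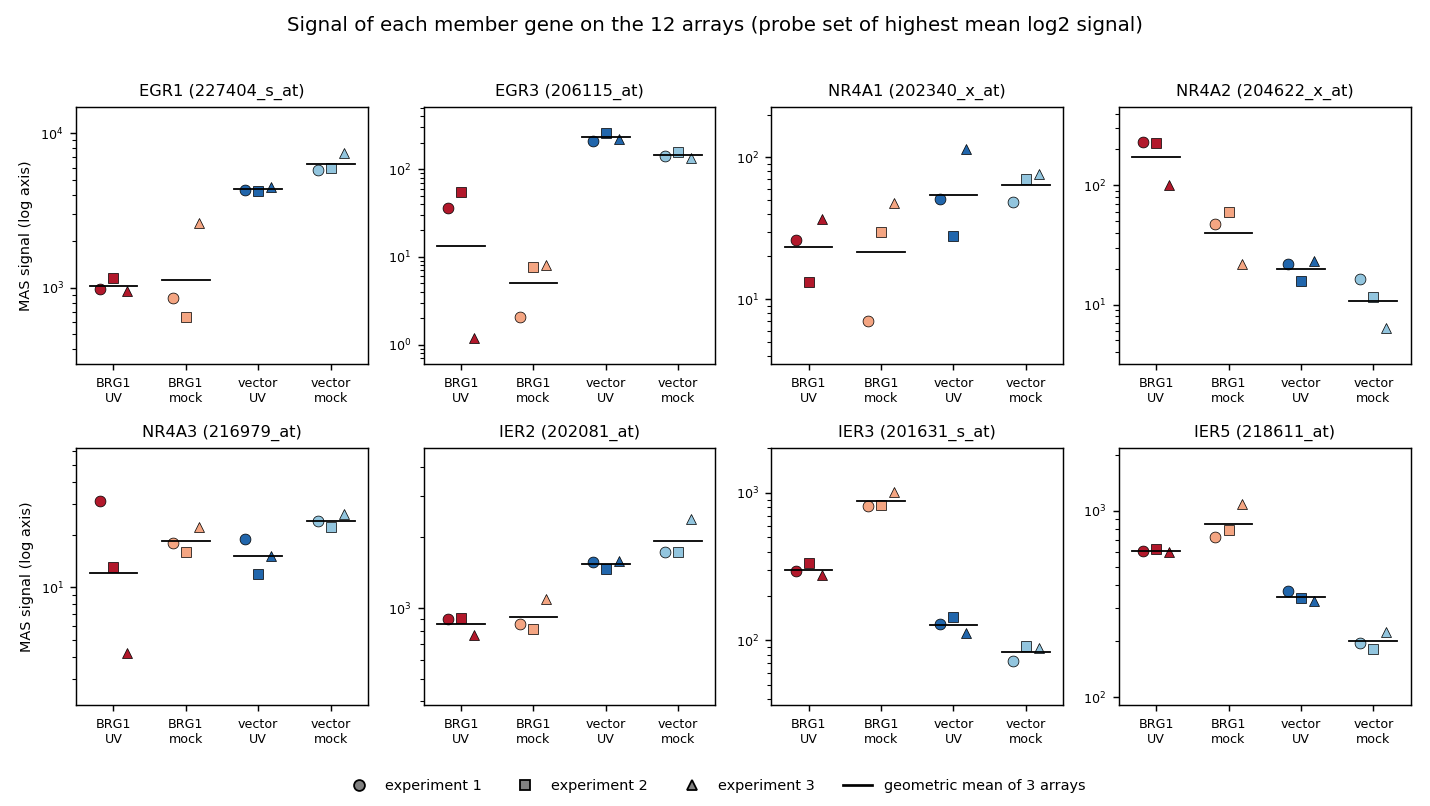
MAS signal (log axis, own scale for each panel) of the 8 member genes by group, with 1 point for each array, its shape giving the experiment, and a line at the geometric mean of the 3 arrays. EGR1, EGR3 and IER2 lie lower in both groups of SW13+BRG1 arrays, NR4A2, IER3 and IER5 lie higher, and the triangle of experiment 3 lies farthest from the rest of its group for EGR1 in SW13+BRG1 mock (2616) and for EGR3 in SW13+BRG1 UV (1.2).

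EGR1, the serum and stress induced zinc finger factor after which the family is named, was lower in SW13+BRG1 cells. On its brightest probe set (227404_s_at) the signals were 982, 1163 and 961 in SW13+BRG1 UV and 857, 644 and 2616 in SW13+BRG1 mock cells, against 4285, 4236 and 4501 in SW13+vector UV and 5823, 5980 and 7463 in SW13+vector mock cells. No SW13+BRG1 array reached the lowest SW13+vector array, and the mock array of experiment 3 lay closest. The fold change between the lines was -2.50 on the log2 scale in mock treated cells (SE 0.36, 5.65-fold lower, limma adjusted p = 2.3e-04) and -2.07 in UV treated cells (SE 0.36, 4.21-fold lower, adjusted p = 0.000866). In experiments 1 and 2 alone these changes were -2.99 and -2.00, both called.

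The other probe sets of EGR1 ran in the same direction. On 201694_s_at the signals were 211, 355 and 200 in SW13+BRG1 UV and 230, 247 and 531 in SW13+BRG1 mock cells, against 1306, 1041 and 658 in SW13+vector UV and 1063, 1081 and 1447 in SW13+vector mock cells. The lines did not overlap, and the changes of -1.93 in mock treated cells (adjusted p = 0.000895) and -1.97 in UV treated cells (adjusted p = 0.000694) were both called. The dimmest, 201693_s_at, read 79.3, 146 and 70.6 in SW13+BRG1 UV and 35.4, 31.8 and 106 in SW13+BRG1 mock cells, against 142, 130 and 217 in SW13+vector UV and 200, 180 and 359 in SW13+vector mock cells. It was called lower in mock treated cells (-2.25, adjusted p = 0.00251), while in UV treated cells, where the lines overlapped, the change was -0.76 (95% interval -1.72 to 0.20, adjusted p = 0.257). Across the 12 arrays the 3 probe sets of EGR1 correlated with each other at Pearson r of 0.806 to 0.958 in log2 signal.

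The order of the EGR1 groups on the brightest probe set, from low to high mean log2 signal, was SW13+BRG1 UV, SW13+BRG1 mock, SW13+vector UV and SW13+vector mock. UV over mock was called in neither line. It was -0.13 in SW13+BRG1 (95% interval -0.91 to 0.64, adjusted p = 0.874) and -0.56 in SW13+vector cells (-1.33 to 0.22, adjusted p = 0.399), where the 3 UV arrays all lay below the 3 mock arrays. The error of both values is shared with the high SW13+BRG1 mock array of experiment 3. Without that array the change in SW13+vector cells was still -0.56, with an adjusted p of 0.0187, and in experiments 1 and 2 alone it was -0.47 (adjusted p = 0.0144), both within the 2-fold limit. In SW13+BRG1 cells 201693_s_at gave 0.93 with all arrays (limma adjusted p = 0.209). On 227404_s_at and 201694_s_at the direction in these cells rested on experiment 3. Without it UV over mock was 0.52 on 227404_s_at (adjusted p = 0.00635, under the 2-fold limit), 0.20 on 201694_s_at against -0.34 with it, and 1.68 on 201693_s_at (adjusted p = 0.000795, called). The UV response then differed between the lines by 0.99 on 227404_s_at and 2.17 on 201693_s_at (adjusted p = 0.0326 and 0.0395). With all 12 arrays these differences were 0.42 and 1.49, with adjusted p = 1 and 0.964. On 201694_s_at the difference was -0.04 with all 12 arrays, -0.31 to 0.35 with 1 array left out and -0.17 to 0.22 in other settings, and was called in none. On 201693_s_at, UV over mock in SW13+BRG1 cells was also called when only the mock array of experiment 3 was left out (1.48, adjusted p = 0.0206).

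EGR3, a close relative of EGR1 that is itself an EGR target in several cell types, had 1 probe set (206115_at). It read 35.7, 54.3 and 1.2 in SW13+BRG1 UV and 2.04, 7.58 and 8.0 in SW13+BRG1 mock cells, against 212, 259 and 223 in SW13+vector UV and 143, 155 and 135 in SW13+vector mock cells. All 6 SW13+BRG1 values lay below all 6 SW13+vector values, and 4 of them, among them every mock value, lay below the median of their array. EGR3 was lower in SW13+BRG1 by -4.85 on the log2 scale in mock treated cells (SE 1.06, adjusted p = 0.00498) and by -4.12 in UV treated cells (SE 1.06, adjusted p = 0.0123). Both sizes depend on how such low signals are treated, since with 16 added to every signal they were -2.88 and -2.63, still called. In experiments 1 and 2 alone the change in UV treated cells was -2.41 (adjusted p = 0.00392).

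For UV over mock, EGR3 gave 1.41 in SW13+BRG1 (95% interval -0.88 to 3.71, adjusted p = 0.462) and 0.68 in SW13+vector cells (-1.62 to 2.97, adjusted p = 0.772). The UV array of experiment 3 was the low one in SW13+BRG1 and the other 2 UV arrays lay above every mock array. Without that array the change in SW13+BRG1 cells was 3.14 (adjusted p = 0.00257), and in experiments 1 and 2 alone it was 3.49 (adjusted p = 0.00055), both called. In SW13+vector cells the 3 UV values lay above the 3 mock values, in a change that was not called. The UV response differed between the lines by 0.74 (95% interval -2.51 to 3.98), and by 2.83 in experiments 1 and 2 alone (adjusted p = 0.173).

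Of 4 further genes of the EGR family and its partners, EGR4, the corepressors NAB1 and NAB2, which bind EGR proteins, and the related zinc finger factor WT1, all were tested and 3 were called lower in mock treated SW13+BRG1 cells, where 5.09% of 13834 genes were, and none higher, where 9.05% were. NAB2 changed by -1.69 (adjusted p = 0.00621), EGR4 by -1.30 (adjusted p = 0.0242) and WT1 by -1.01 (adjusted p = 0.00608). NAB1 changed by -0.82 (adjusted p = 0.00622), within the 2-fold limit. In UV treated cells WT1 was again called lower (-1.01, adjusted p = 0.00552), the 1 gene of the 4 that was, beside 6.61% of all genes. The median change of the 4 was -1.15 in mock treated and -0.96 in UV treated cells.

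NR4A2 (Nurr1), known for its role in dopaminergic neurons and as a rapid target of cAMP and stress signals, was higher in SW13+BRG1 cells and rose there after UV. On its brightest probe set (204622_x_at) the signals were 229, 226 and 101 in SW13+BRG1 UV and 47.7, 59.3 and 22.0 in SW13+BRG1 mock cells, against 22.0, 15.6 and 23.2 in SW13+vector UV and 16.5, 11.6 and 6.34 in SW13+vector mock cells. The SW13+BRG1 UV arrays stood above all others, and every SW13+vector array was below the array median except the UV array of experiment 3. The line difference was 3.12 on the log2 scale in UV treated cells (SE 0.49, 8.67-fold, adjusted p = 0.000427) and 1.89 in mock treated cells (SE 0.49, 3.71-fold, adjusted p = 0.0142). The mock call was lost without the mock array of experiment 1 or 2 of SW13+BRG1 (adjusted p = 0.0588 and 0.0736) and in a fit of the compared arrays alone (adjusted p = 0.0574).

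The other probe sets of NR4A2 gave the same order. On 216248_s_at the signals were 225, 203 and 125 in SW13+BRG1 UV and 46.2, 50.8 and 16.5 in SW13+BRG1 mock cells, against 12.3, 24.8 and 13.4 in SW13+vector UV and 18.7, 13.9 and 10.6 in SW13+vector mock cells. On 204621_s_at they were 148, 137 and 78.5 in SW13+BRG1 UV and 27.1, 56.6 and 20.2 in SW13+BRG1 mock cells, against 13.2, 4.74 and 4.95 in SW13+vector UV and 5.0, 1.25 and 3.73 in SW13+vector mock cells. After UV the lines were separate on both, with changes of 3.48 (11.2-fold, adjusted p = 0.000149) and 4.11 (17.2-fold, adjusted p = 0.000678). In mock treated cells 204621_s_at was called (3.46, adjusted p = 0.00267), while 216248_s_at, on which the lines overlapped, changed by 1.27 (95% interval 0.23 to 2.31, adjusted p = 0.0825). That last change was called without the SW13+BRG1 mock array of experiment 3 (1.79, adjusted p = 0.0128) and in experiments 1 and 2 alone (1.59, adjusted p = 0.0117). By the methods' t-test without adjustment no NR4A2 probe set was called between the mock treated lines, and 204622_x_at was called neither between the UV treated lines nor for UV in SW13+BRG1 cells. With 16 added to each signal the 3 changes were 1.06, 0.76 and 1.33 in mock treated and 2.40, 2.59 and 2.51 in UV treated cells.

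Within SW13+BRG1 cells UV raised NR4A2 on 2 of its 3 probe sets. UV over mock was 2.13 on 204622_x_at (SE 0.49, 4.37-fold, adjusted p = 0.0111), 2.40 on 216248_s_at (SE 0.48, 5.28-fold, adjusted p = 0.00482) and 1.89 on 204621_s_at (SE 0.69, 3.71-fold, adjusted p = 0.0903), and on each of them the 3 UV arrays lay above the 3 mock arrays. With 16 added to each signal 204621_s_at was called (1.46, adjusted p = 0.005), and 204622_x_at was not called without the UV array of experiment 1 or of experiment 2 (adjusted p = 0.0518 and 0.0527). In SW13+vector cells UV over mock was 0.90, 0.19 and 1.24, with adjusted p of 0.302, 0.87 and 0.311, and the arrays overlapped. The difference of the UV response between the lines was 1.22, 2.21 and 0.65 on the 3 probe sets and was called on none (adjusted p = 1, 0.726 and 1), with 95% intervals of -0.28 to 2.73, 0.74 to 3.68 and -1.45 to 2.75.

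NR4A1 (Nur77), a stress and T cell receptor induced receptor, and NR4A3 (NOR1), the remaining family member, gave low signals. NR4A1 read 26.1, 13.2 and 36.9 in SW13+BRG1 UV and 6.98, 29.7 and 47.4 in SW13+BRG1 mock cells, against 51.0, 27.8 and 114 in SW13+vector UV and 48.6, 70.9 and 76.8 in SW13+vector mock cells on 202340_x_at. The mock treated lines did not overlap there, with a change of -1.58 (95% interval -3.06 to -0.11, adjusted p = 0.13) that was not called, although it was in experiments 1 and 2 alone (-2.03, adjusted p = 0.0498). The UV treated lines overlapped (-1.22, adjusted p = 0.233).

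The 3 probe sets of NR4A1 did not follow one another, with Pearson r over the 12 arrays of -0.0984 to 0.277, and none was called in any comparison. On 211143_x_at the signals were 19.8, 23.0 and 55.6 in SW13+BRG1 UV and 20.8, 4.95 and 13.7 in SW13+BRG1 mock cells, against 56.2, 62.6 and 60.8 in SW13+vector UV and 29.1, 30.2 and 21.5 in SW13+vector mock cells. The lines were apart in both treatments, SW13+BRG1 the lower, by -1.25 in mock (adjusted p = 0.135) and -1.03 in UV treated cells (adjusted p = 0.208). On 210226_at the signals were 30.8, 34.2 and 13.7 in SW13+BRG1 UV and 7.75, 7.41 and 5.50 in SW13+BRG1 mock cells, against 3.35, 7.23 and 10.5 in SW13+vector UV and 10.1, 26.4 and 14.4 in SW13+vector mock cells. Here the SW13+BRG1 arrays were the lower ones in mock treated (-1.20, adjusted p = 0.303) and the higher ones in UV treated cells (1.94, adjusted p = 0.0724), the last called in experiments 1 and 2 alone (2.72, adjusted p = 0.0408) and with a prior variance without trend (adjusted p = 0.0227).

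The UV responses of NR4A1 varied with the probe set. On the brightest, 202340_x_at, UV over mock was 0.12 in SW13+BRG1 (limma adjusted p = 0.941) and -0.24 in SW13+vector cells (adjusted p = 0.884). On 211143_x_at UV over mock was 1.39 in SW13+BRG1 (adjusted p = 0.116) and 1.17 in SW13+vector cells (adjusted p = 0.218), while on 210226_at it was 1.84 (adjusted p = 0.119) and -1.31 (adjusted p = 0.314), a difference between the lines of 3.14 (SE 1.03, adjusted p = 0.762). Without the trend in the prior variance the 1.84 in SW13+BRG1 cells was called (adjusted p = 0.0492). NR4A3 stayed at or below a signal of 42.2 on every array of its 3 probe sets, and 209959_at, with a highest value of 19.5, was not tested. On 216979_at it read 31.4, 13.1 and 4.22 in SW13+BRG1 UV and 18.1, 15.9 and 22.1 in SW13+BRG1 mock cells, against 18.9, 11.9 and 15.2 in SW13+vector UV and 23.9, 22.3 and 26.3 in SW13+vector mock cells, most of them below the array median. On 207978_s_at it read 42.2, 5.98 and 12.1 in SW13+BRG1 UV and 27.1, 13.5 and 1.46 in SW13+BRG1 mock cells, against 7.37, 9.91 and 4.22 in SW13+vector UV and 38.8, 27.9 and 2.86 in SW13+vector mock cells. Its groups overlapped, with changes between the lines of 1.10 in UV and -0.85 in mock treated cells and UV over mock of 0.84 in SW13+BRG1 and -1.11 in SW13+vector cells. None of its changes had an adjusted p under 0.591. Among partners of the family, the retinoid receptors RXRA and RXRB, with which NR4A1 and NR4A2 can pair, were tested and neither was called in any comparison.

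IER3 (IEX-1), a short lived regulator of survival and ERK signaling, differed between the lines and with UV. It read 296, 333 and 279 in SW13+BRG1 UV and 808, 825 and 1006 in SW13+BRG1 mock cells, against 129, 144 and 112 in SW13+vector UV and 72.4, 91.5 and 88.9 in SW13+vector mock cells (201631_s_at). No 2 of the 4 groups overlapped. SW13+BRG1 was higher by 3.38 on the log2 scale in mock treated cells (SE 0.17, 10.4-fold, adjusted p = 1.41e-08) and by 1.24 in UV treated cells (SE 0.17, 2.37-fold, adjusted p = 0.000114).

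The UV responses of IER3 ran in opposite directions in the lines. UV over mock was -1.54 in SW13+BRG1 cells (SE 0.17, 2.9-fold lower, adjusted p = 9.83e-05), which was called, and 0.61 in SW13+vector cells (SE 0.17, 1.52-fold, adjusted p = 0.0363), within the 2-fold limit. The difference of these responses was -2.14 (SE 0.23, 95% interval -2.65 to -1.63, adjusted p = 0.00413), and in experiments 1 and 2 alone it was -2.12 (adjusted p = 0.00127). The order of the groups was thus SW13+vector mock, SW13+vector UV, SW13+BRG1 UV and SW13+BRG1 mock, with each neighbouring pair apart. The rise in SW13+vector cells is the less secure part. With 1 array left out it was 0.50 to 0.70 (limma adjusted p = 0.0346 to 0.133), and other settings gave 0.35 to 0.77. The median UV change of 7 tested reference genes, such as GAPDH, was 0.31 in SW13+vector and 0.41 in SW13+BRG1 cells. They did not move alike, since 1 of the 7, TBP, was called lower after UV in SW13+BRG1 cells, beside 6.27% of all genes. Its mean log2 signal was 7.499 in mock and 6.385 in UV arrays there, and 8.258 and 7.623 in SW13+vector cells.

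IER5, a heat shock factor partner that is also induced by ionizing radiation, had the same order of groups as IER3. It read 612, 625 and 598 in SW13+BRG1 UV and 719, 789 and 1084 in SW13+BRG1 mock cells, against 371, 341 and 327 in SW13+vector UV and 196, 181 and 225 in SW13+vector mock cells (218611_at). Again the groups did not overlap. SW13+BRG1 was higher by 2.09 in mock treated cells (SE 0.16, 4.26-fold, adjusted p = 6.65e-07), which was called, and by 0.82 in UV treated cells (SE 0.16, 1.77-fold, adjusted p = 0.00168), within the 2-fold limit.

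UV over mock for IER5 was -0.48 in SW13+BRG1 (SE 0.16, adjusted p = 0.0606) and 0.79 in SW13+vector cells (SE 0.16, 1.73-fold, adjusted p = 0.00711), neither past 2-fold. The difference of the responses was -1.27 (SE 0.22, 95% interval -1.75 to -0.79) with an adjusted p of 0.0934. It passed in experiments 1 and 2 alone (-1.20, adjusted p = 0.00289) and with experiment 3 as a batch term (adjusted p = 0.0058). IER5L, the relative of IER5, was called in no comparison, and its UV over mock was 0.27 in SW13+BRG1 and 0.54 in SW13+vector cells.

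IER2, a nuclear early protein linked to cell motility, went with EGR1 rather than with the other IER genes. It read 897, 909 and 769 in SW13+BRG1 UV and 855, 815 and 1089 in SW13+BRG1 mock cells, against 1566, 1473 and 1593 in SW13+vector UV and 1725, 1729 and 2404 in SW13+vector mock cells (202081_at). The lines did not overlap. The change was -1.08 in mock treated cells (SE 0.15, 2.11-fold lower, adjusted p = 0.000157), which was called, and -0.85 in UV treated cells (SE 0.15, adjusted p = 9e-04), within the 2-fold limit. The mock change lay close to that limit and fell inside it without the SW13+BRG1 mock array of experiment 2 (-0.9993) or the SW13+vector mock array of experiment 3 (-0.92). UV over mock was -0.09 in SW13+BRG1 (95% interval -0.41 to 0.23, adjusted p = 0.769) and -0.32 in SW13+vector cells (-0.64 to -0.0018, adjusted p = 0.211), where the 3 UV arrays lay below the 3 mock arrays. The difference between these responses was 0.23 (95% interval -0.22 to 0.68).

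**Figure D2:**
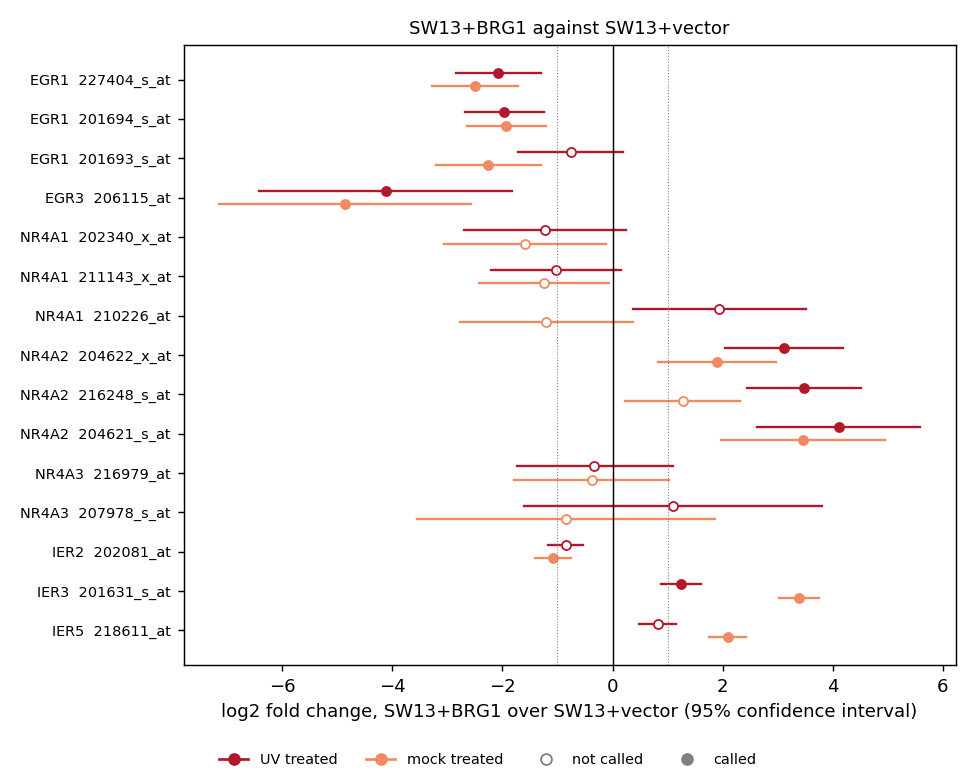
Log2 fold change of SW13+BRG1 over SW13+vector with its 95% confidence interval for the 15 tested probe sets, UV treated above mock treated in each pair, filled where called and open where not, with dotted lines at 2-fold. EGR1, EGR3 and IER2 lie to the left of 0 and NR4A2, IER3 and IER5 to the right, all NR4A1 and NR4A3 symbols are open, and the intervals of EGR3 (-7.15 to -2.56 in mock treated cells) and of NR4A3 207978_s_at are among the wide ones.

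**Figure D3:**
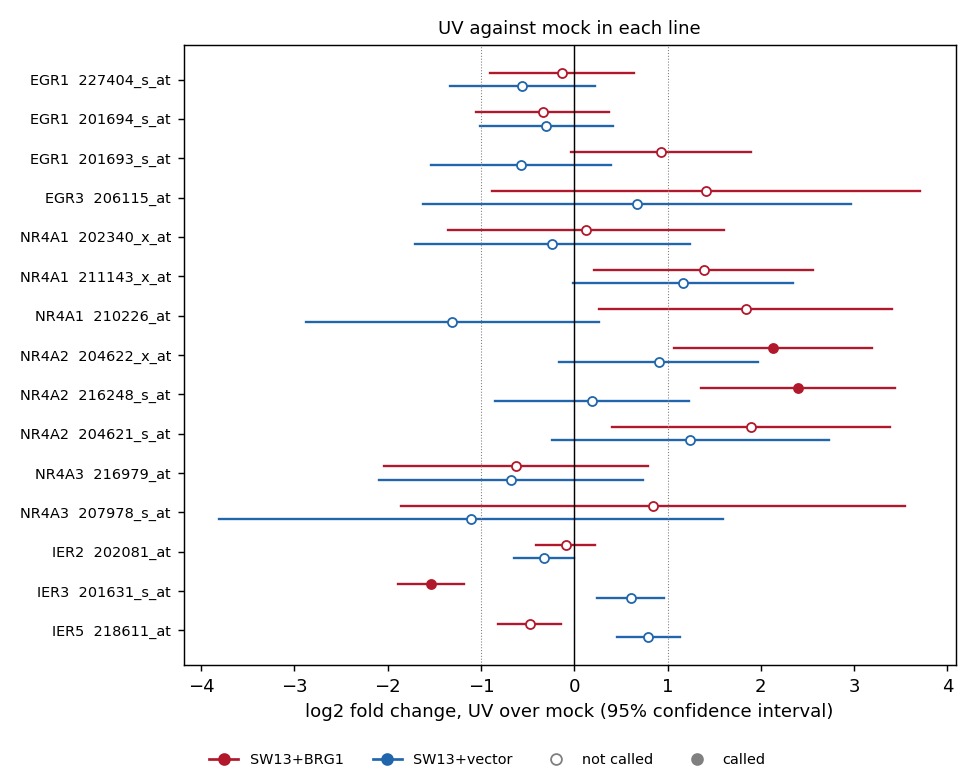
Log2 fold change of UV over mock with its 95% confidence interval for the 15 tested probe sets, SW13+BRG1 above SW13+vector in each pair, filled where called and open where not, with dotted lines at 2-fold. NR4A2 is filled on the right and IER3 on the left in SW13+BRG1 cells, and IER3 (0.61) and IER5 (0.79) lie to the right of 0 with open symbols in SW13+vector cells.

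Over the 12 arrays EGR1 and IER2 had a Pearson r of 0.967 in log2 signal, IER3 and IER5 of 0.95, and EGR1 and EGR3 of 0.79, whereas EGR1 and IER3 had -0.804 and EGR1 and NR4A2 -0.85. These are descriptions over arrays that share 4 groups, and a difference between the lines alone gives a high value. Among 13834 genes the 3 closest to IER3 were JUN (r = 0.982), the AP-1 subunit, NHS (0.967) and NCKAP5 (0.966). JUN read a mean of 873 ± 147 in SW13+BRG1 UV, 2816 ± 588 in SW13+BRG1 mock, 294 ± 16.1 in SW13+vector UV and 164 ± 4.0 in SW13+vector mock cells (SD, n = 3 each), the same order as IER3. That order comes with the choice of JUN by r over these same arrays and is no separate result. The closest to IER5 were KHNYN (0.961), IRGQ (0.954) and DUSP4 (0.951), a phosphatase of ERK and JNK. The closest to EGR1 were KNTC1 (0.995), ADAP2 (0.977) and EREG (0.976), an EGF receptor ligand, and to IER2 they were EZH2 (0.98), the Polycomb methyltransferase, ARID3B (0.979) and TCAM1P (0.976). NR4A2 was closest to FAHD1 (0.981), ATP6V0E1 (0.978) and CETN2 (0.976), the centrin of the XPC damage recognition complex, and EGR3 to HTATSF1 (0.96), IAPP (0.956) and FNTA (0.949). For NR4A1 and NR4A3, whose values are low, no value passed 0.918. NHS, NCKAP5, EREG, ARID3B and IAPP read below the array median in whole groups and passed the filter through the groups in which they were high. NCKAP5 read 0.25 to 0.58 in SW13+vector mock and IAPP 0.74 to 2.02 in SW13+BRG1 mock cells. Their r depends on the log2 of such low signals.

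Of 10 tested genes that carry signals to early promoters, SRF, the ternary complex factors, the MRTF coactivators and CREB with its partners, 2 were called higher and none lower in mock treated SW13+BRG1 against SW13+vector cells, where 9.05% of all genes were higher and 5.09% lower. They were ELK3 (1.10, adjusted p = 0.00099), a ternary complex factor that can repress, and MRTFA (1.27, adjusted p = 0.0432), an actin regulated partner of SRF. SRF itself changed by -0.90 in mock treated (adjusted p = 0.0046) and -0.95 in UV treated cells (adjusted p = 0.00274), within the 2-fold limit. After UV 4 of the 10 were called lower in SW13+BRG1 cells, where 6.27% of genes were, and 3 in SW13+vector cells, where 3.93% were, CREB1, ELK4 and MRTFB in both and MRTFA in SW13+BRG1 cells. Of 9 tested kinases of the ERK and stress pathways, RPS6KA3 was called higher (1.38, adjusted p = 9.19e-05) and MAPK9, which encodes JNK2, lower (-1.50, adjusted p = 2.81e-06) in mock treated SW13+BRG1 cells, 1 of 9 in each direction beside those 9.05% and 5.09%. In UV treated cells 1 was called higher, RPS6KA3, and 2 lower, MAPK9 and MAP2K4, beside 9.56% and 6.61% of all genes.

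Of 34 other immediate early genes tested, 11 were called higher and 7 lower in mock treated SW13+BRG1 against SW13+vector cells, beside 9.05% and 5.09% of all genes. In UV treated cells these counts were 11 and 5, beside 9.56% and 6.61%. After UV 6 were called higher and 6 lower in SW13+BRG1 cells, beside 0.535% and 6.27% of all genes. In SW13+vector cells 4 were called higher and 6 lower, beside 0.528% and 3.93%. FOSB, with 3.95 in SW13+BRG1 (adjusted p = 0.00193) and 3.09 in SW13+vector cells (adjusted p = 0.0128), and HBEGF, with 2.48 and 1.55 (adjusted p = 2.17e-05 and 0.0012), were called higher in both lines. FOSB read 2.53 to 3.90 in SW13+BRG1 mock and 2.67 to 4.15 in SW13+vector mock cells, all below the array medians, so that it passed the filter through the UV arrays and the size of its changes depends on such low signals. For the difference of the UV responses JUN was called with a negative value (-2.52, adjusted p = 0.00199), like IER3, and NFKBIZ with a positive one (1.97, adjusted p = 0.00438), beside 0.0506% and 0.0145% of all genes.

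**Figure D4:**
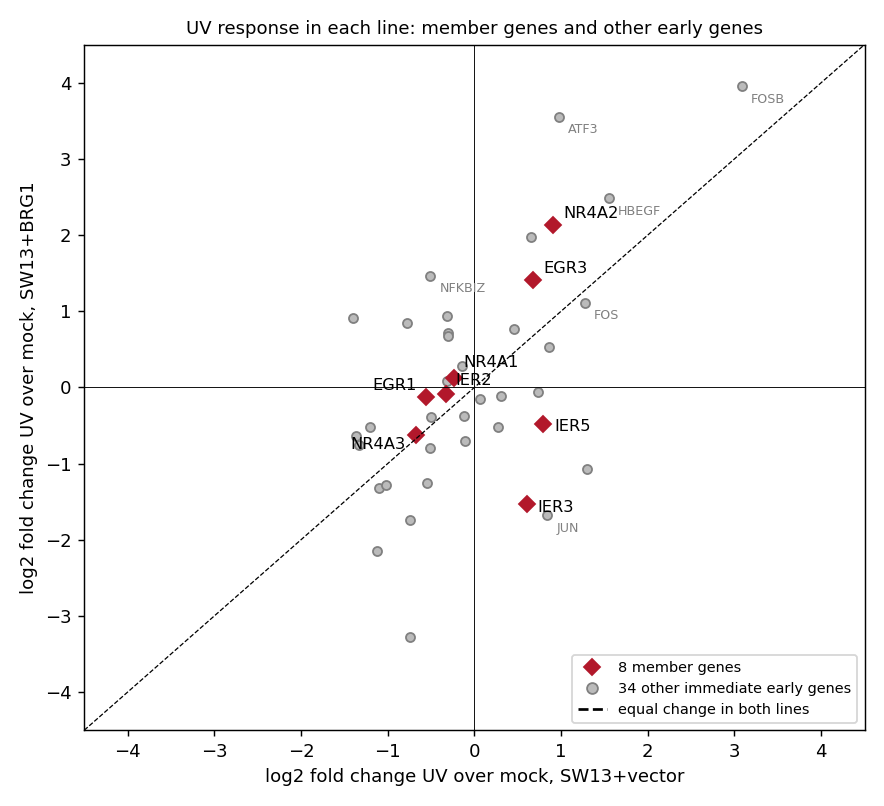
Log2 fold change of UV over mock in SW13+BRG1 (vertical axis) against that in SW13+vector cells (horizontal axis) for the 8 member genes (diamonds) and 34 other immediate early genes (circles), each by its brightest tested probe set, with a dashed line at equal change. IER3 (-1.54 and 0.61) lies beside JUN at the lower right, IER5 (-0.48 and 0.79) above them, NR4A2 (2.13 and 0.90) on the side of HBEGF (2.48 and 1.55), and EGR1 and IER2 lie near the origin.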

How the data were processed

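Biotin labelled RNA of the 12 cultures (TRIZOL, then RNeasy) was hybridized to Affymetrix U133 Plus 2.0 arrays, and the deposited values are MAS signal intensities on a linear scale, scaled by the authors to a mean target of 125 per array. The 2% trimmed mean was 125 on each array. No source used here gives the MAS version, and detection calls were not used. Control probe sets were left out, 32622 of 54613 others were tested, and log2 signals were fitted with limma 3.58.1 in R 4.3.3 with 1 mean per group and a trended prior variance, Benjamini-Hochberg adjusted. Each gene is named through the platform annotation, and every probe set of a member is reported, the brightest standing for the gene in gene counts and in the naming of the 3 genes most like each member by Pearson r of log2 signal. Probe sets ending in _s_at or _x_at can match more than 1 transcript. The arrays are 3 independent cultures per group of 1 line each, and the number of arrays limits precision. The p-values measure the spread of cultures within groups, pooled over the 4 groups, which includes the shared deviation of experiment 3. On simulated data of UV against mock in SW13+BRG1 cells, 75% of 100 changes of 1.5 and 99% of 100 changes of 3 on the log2 scale were called, with 6 false calls among 32622 probe sets. The simulated noise was normal and independent between arrays, without the shared deviation of experiment 3. No change was placed in the dimmest probe sets, so these rates may not hold for the real arrays or for dim members. Alternatives were other scalings, an added 16, other filters, the experiment number as a block, the compared arrays alone, another prior, the methods' t-test (p under 0.05 and above 2-fold) and each array left out. Experiments 1 and 2 alone and a batch term for experiment 3 were chosen after seeing the data. The members and gene lists were chosen with earlier results of these data known.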

Additional observations from a re-analysis of the deposited data

Results flagged for a closer look

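IER3 was picked out because its UV response differed between the lines by a test of the difference itself, with an interaction of -2.14 on the log2 scale (limma adjusted p = 0.00413). The UV response was -1.54 in SW13+BRG1 and 0.61 in SW13+vector, and every UV array lay below every mock array in SW13+BRG1 and above every mock array in SW13+vector cells. IER5 had the same arrangement of its arrays, with -0.48 and 0.79, but the test of its difference gave -1.27 with an adjusted p of 0.0934. Groups of 3 arrays are too small for a search for single outlying arrays. The EGR1 and EGR3 values given without 1 array of experiment 3 left out an array seen to be extreme, so their p-values are descriptions.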

How the results depend on the processing

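Of 1900 values of single probe sets under other settings 1844 kept their call, 27 lost and 29 gained one, and 48 changed sign, none of them called in either setting. Of the 15 member probe sets, leaving out 1 array gave 7 to 10 calls (9 with all arrays) between the mock treated lines, 7 to 7 (7) between the UV treated lines, 2 to 4 (3) for UV in SW13+BRG1, 0 to 0 (0) for UV in SW13+vector and 1 to 1 (1) for the difference of the UV responses. The methods' t-test with Benjamini-Hochberg adjustment called 1, 3 and 0 in the first 3 of these comparisons, where over all probe sets it called 624, 941 and 137 against 3912, 4455 and 2078 by limma, and without adjustment 1 for UV in SW13+vector. Adjustment over genes, by their brightest probe set, gave 4 between the UV treated lines, and no fold limit gave 2 for UV in SW13+vector, IER3 and IER5. For the difference of the UV responses, quantile normalization, scaling to hybridization controls and the replicate block each gave 2, IER3 and IER5, as did a batch term for experiment 3, and experiments 1 and 2 alone gave 4, with 5 for UV in SW13+BRG1.

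The deviations of same-numbered arrays correlated at r of 0.0152 to 0.293 over pairs of groups, not above 0.1 in every pair, and not every array correlated best with its own number, so the numbers were not taken as pairs. The replicate block made 11 member calls between the mock treated lines, adding NR4A1 202340_x_at (adjusted p = 0.0431) and NR4A2 216248_s_at (adjusted p = 0.0266), which a batch term for experiment 3 also called (0.0331 and 0.0192). It called 69 probe sets for the difference of the UV responses against 16 without it. Scaling to the 18 hybridization controls, whose mean log2 signal was 10.29 to 10.54 on UV and 9.97 to 10.27 on mock arrays, moved the median UV change of all probe sets to -0.45 in SW13+BRG1 and -0.27 in SW13+vector cells and called 4415 and 2383 probe sets, against 2078 and 1392, and it put 55.5% of calls between the UV treated lines on the lower side, against 43.7%. Quantile normalization put 80.8% of the UV calls in SW13+BRG1 on the lower side, against 91.2%. Among the members these scalings turned the sign of 4 values, none of them called, for NR4A1 202340_x_at (0.12 and -0.27) in SW13+BRG1 and NR4A2 216248_s_at (0.19 and -0.07) in SW13+vector after UV, and for EGR1 201694_s_at and NR4A3 216979_at in the difference of the UV responses. Signals under the array median limit EGR3, NR4A1, NR4A3 and NR4A2 in SW13+vector.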
